A study of Mus musculus with 10 samples.

Results

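The carbonic anhydrases described here are 8 genes of 1 enzyme family, Car2, Car4, Car5b, Car6, Car9, Car11, Car12 and Car13, of 53379 genes in the count table. They were taken by symbol from the family's 16 genes, and the set was chosen by inspecting measured values, the control against high-fat difference in these same libraries, so diet differences of the members are given as a description. MC38 is a mouse colon carcinoma line, implanted here in C57BL/6J mice. Tumors were collected after 21 days, and cells that carried dTomato, a red fluorescent protein marking the tumor cells, and lacked CD45, the shared surface protein of leukocytes, were sorted. The control group was 5 mice on a control diet and the high-fat group 5 mice on a high-fat diet, with 1 library of polyadenylated RNA per mouse. Every mouse carried the same labelled cell line. What the diets held, how long they were fed, and the sex and age of the mice are not stated in the labels.

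Carbonic anhydrases interconvert carbon dioxide and water with bicarbonate and a proton. Tumor cells use the cell-surface members to turn the carbon dioxide they release into bicarbonate, which transporters carry back into the cell, and protons, which stay outside and acidify the tumor. The family also has cytosolic, mitochondrial and secreted enzymes, and members that have lost the catalytic site. Car9 is a textbook target of HIF-1, the transcription factor that is active when oxygen is short and that binds DNA through the core letters ACGTG.

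Of the tested members, Car9 and Car6 had the largest diet differences, and the 250 bases before their RefSeq starts are printed because 3 stress-response motifs were searched there. The sequences are those of RefSeq on GRCm38.p6, written 5′ to 3′ on the gene's own strand. Capitals mark matches to the HIF core ACGTG (on the opposite strand it reads CACGT) and to the AP-1 motif TGANTCA. Car9 occupies chr4:43506776-43507025 on the plus strand and Car6 chr4:150201136-150201385 on the minus strand.

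Car9: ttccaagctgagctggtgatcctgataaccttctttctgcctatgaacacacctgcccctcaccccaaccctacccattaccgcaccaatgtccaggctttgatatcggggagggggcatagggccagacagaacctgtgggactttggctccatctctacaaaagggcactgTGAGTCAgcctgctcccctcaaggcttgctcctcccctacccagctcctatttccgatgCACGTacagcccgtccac

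Car6: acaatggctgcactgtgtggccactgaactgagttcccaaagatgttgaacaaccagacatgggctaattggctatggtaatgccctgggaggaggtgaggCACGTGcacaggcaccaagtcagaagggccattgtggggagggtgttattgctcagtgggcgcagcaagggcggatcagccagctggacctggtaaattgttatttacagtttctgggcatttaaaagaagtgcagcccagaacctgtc

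The Car9 window held the HIF core on the opposite strand at positions -18 to -14 from the RefSeq start, and an AP-1 motif at positions -77 to -71. The GENCODE starts of Car9 and of Car6 both lie inside their printed windows. In both genes the HIF core lies past that start, within the GENCODE gene. In the Car6 window the capitals mark 6 letters, CACGTG, which hold the HIF core on both strands at positions -149 to -144 and are also the letters of an E-box. Among 32851 RefSeq promoter windows of 250 bases, 16.6% held ACGTG on either strand and 6.75% held TGANTCA. The CARE motif TGATGNAA, known for binding by ATF4 and CHOP, was found in 3.45% of windows and in neither of those printed. Bases before an internal start of Car6 were not searched. Of the 7 windows found for 6 members, those of Car11, which overlap, held TGATGNAA at a single shared place, and those of Car4, Car5b and Car12 held none of the 3 motifs. Car2 and Car13 had no entry. A match is a stretch of letters, and binding was not measured here.

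Car9 encodes a carbonic anhydrase of the plasma membrane with its active site outside the cell. The gene (ENSMUSG00000028463.14, GRCm38 chromosome 4, 43506966 to 43513729) had 5388 counts over the 10 libraries. Its level in control mice 1 to 5 was 32.8, 36.1, 40.1, 32.3 and 55.1 CPM (read counts scaled to a common library total, with TMM factors). In high-fat mice 1 to 5 the level was 26.1, 22.7, 16.3, 25.4 and 21.8 CPM. All 5 high-fat libraries lay below all 5 control libraries, and control mouse 5 was the highest. The control mean was 1.75 times the high-fat mean. The log2 change was -0.81 (SE 0.16), and edgeR, by its quasi-likelihood test, gave an adjusted p of 0.108 (Benjamini-Hochberg, all genes tested). Leaving out each library in turn moved the log2 change from -0.87 to -0.65, with control mouse 5 left out giving the smallest change. Exons of Car9 overlap those of the antisense gene Gm12454 over 214 bases, and Gm12454 had a mean of 0.655 CPM.

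Car6 encodes the secreted carbonic anhydrase, which is best known from saliva. A form made from an internal start, without the signal for secretion, is known to be induced by CHOP in stressed cells, and counts per gene cannot tell these forms apart. The gene (ENSMUSG00000028972.11, chromosome 4, 150187015 to 150201332) lies on the same chromosome as Car9. Car6 stood at 81.2, 64.5, 11.8, 9.24 and 34.7 CPM in control mice 1 to 5. It stood at 10.3, 10.6, 4.52, 5.15 and 6.88 CPM in high-fat mice 1 to 5. Control mice 1, 2 and 5 were far above every high-fat mouse, whereas control mice 3 and 4 were near them, and control mouse 4 was below high-fat mice 1 and 2. The diets therefore overlapped. The mean was 40.3 ± 31.9 CPM (SD, n = 5) on the control diet and 7.49 ± 2.83 CPM (SD, n = 5) on the high-fat diet, a ratio of 5.38, and the ratio of medians was 5.05. The log2 change was -2.43 (SE 0.60), and its edgeR adjusted p was 0.183. Without control mice 1 and 2, which were picked because they were highest and whose loss narrows the difference by construction, the change was -1.31 (SE 0.43, edgeR adjusted p = 0.431). With 1 library left out it ran from -2.68 to -2.002. Control mice 3 and 4 also had the highest summed level of macrophage markers, 381 and 432 CPM, and the fits without these mice and with that level as a covariate are given further on.

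With the 2 diets pooled, Car6 also varied more among mice of the same diet than almost any other gene. The spread was wider in controls. Deviations of its log2 CPM from the diet mean ran from -1.63 to 1.49 in controls. On the high-fat diet they ran from -0.63 to 0.58. The within-diet SD of its log2 CPM was 1.07, larger than that of 99.7% of the 10838 genes with a mean of at least 5 CPM, whose median SD was 0.155. The highest library had 18.0 times the level of the lowest. The same SD was 0.292 for Car9, larger than in 89.7% of genes, and 0.102 for Car13, larger than in 17.6%.

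The other surface enzymes were scarce. Car12, a membrane enzyme like Car9 with its active site outside the cell (ENSMUSG00000032373.15, chromosome 9, 66713686 to 66766845), had 16, 9, 4, 27 and 12 counts in control mice 1 to 5 and 22, 3, 1, 0 and 4 in high-fat mice 1 to 5. High-fat mouse 1 was above all but control mouse 4, so the diets overlapped. The gene was below the expression filter and was not tested; its level was 0.754 ± 0.459 CPM in control and 0.357 ± 0.541 CPM in high-fat mice (SD, n = 5 each). Car4, which is held to the membrane by a lipid anchor and is known from capillaries, kidney and gut (ENSMUSG00000000805.18, chromosome 11, 84957786 to 84966044), had 4 counts in all. They came from control mouse 2 with 2 counts and high-fat mice 1 and 3 with 1 each. In the 7 libraries at 0, the limit that a count of 0 allows is 3 counts, which was between 0.158 and 0.179 CPM in those libraries, counting error only.

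Car13, a cytosolic enzyme (ENSMUSG00000027555.8, chromosome 3, 14641727 to 14663002), varied least among mice of the members above 5 CPM. Its level was 39.3, 38.1, 35.6, 40.3 and 39.6 CPM in control mice 1 to 5. In high-fat mice 1 to 5 it was 46.5, 37.5, 39.8, 41.3 and 37.7 CPM. The diets overlapped and only high-fat mouse 1 stood above the rest. The log2 change was 0.07 (SE 0.07, edgeR adjusted p = 0.772).

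Car2, the fast cytosolic enzyme that is abundant in red cells and in bone-resorbing cells (ENSMUSG00000027562.12, chromosome 3, 14886273 to 14900770), lies near Car13 on chromosome 3, with Car1 and Car3 between them. It had only 106 counts, with 2, 5, 16, 25 and 5 in control mice 1 to 5 and 1, 20, 19, 13 and 0 in high-fat mice 1 to 5. Low and high libraries were found in both diets. The log2 change was 0.11 (SE 0.81, edgeR adjusted p = 0.973), and it turned negative without control mouse 1, 2 or 5 or high-fat mouse 2 or 3, at -0.24 without high-fat mouse 2. Its direction is therefore not determined by these data.

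Car5b, the mitochondrial member (ENSMUSG00000031373.4, chromosome X, 163976822 to 164027997), had 40 counts over 10 libraries, at most 10 in 1 library, and was not tested. Its counts were 2, 3, 7, 5 and 2 in control mice 1 to 5 and 5, 3, 10, 2 and 1 in high-fat mice 1 to 5, which overlap. Car11 encodes a related protein that has lost the catalytic site (ENSMUSG00000003273.14, chromosome 7, 45699843 to 45704682). It stood at 3.92, 2.86, 4.84, 2.59 and 3.81 CPM in control mice 1 to 5 and at 4.53, 4.30, 5.37, 3.55 and 1.40 CPM in high-fat mice 1 to 5. High-fat mouse 5 was the lowest and high-fat mouse 3 the highest of all 10. The log2 change was 0.09 (SE 0.29, edgeR adjusted p = 0.939), with the opposite sign without control mouse 4 or high-fat mouse 3 and, at -0.48 (SE 0.36), with library size as a covariate.

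**Figure D1:**
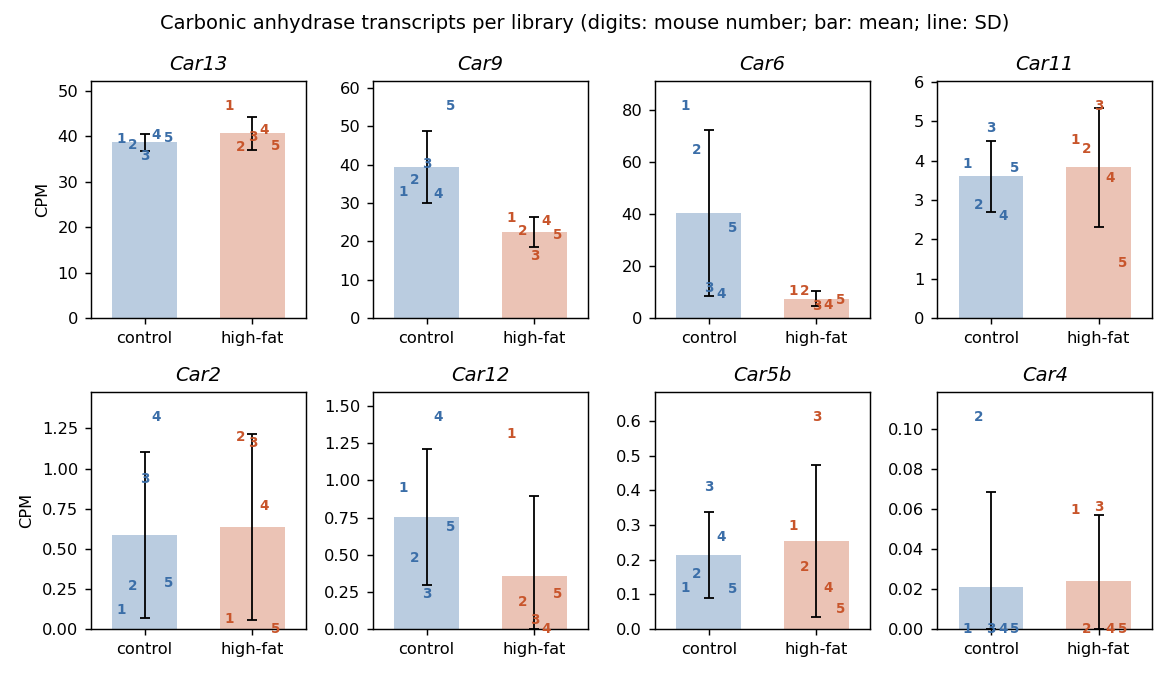
Levels of the 8 carbonic anhydrases in CPM, each digit being 1 library (its mouse number), bars the diet mean and lines the SD of 5 mice. Car9 shows 2 separate groups, Car6 shows control mice 1, 2 and 5 far above the other 7 libraries, and Car13 is level across all 10.

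Of the 8 members, 5 passed the filter on low counts and 0 of these 5 passed the edgeR threshold of an adjusted p under 0.05, a threshold that 0.0628% of the 14337 genes tested passed. At an unadjusted p under 0.05, 2 members were lower, Car9 and Car6, and 0 were higher, while 6.62% of all genes tested were lower and 5.45% higher. Car9 was the member whose diets did not overlap, and all high-fat libraries lay below all control libraries for 1.1% of genes tested. These counts use the contrast with which the members were chosen and are not evidence for them.

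Other fits moved Car9 and Car6 across the threshold. DESeq2 called both lower, with adjusted p = 0.00111 for Car9 and 0.0127 for Car6, where it called 1.29% of genes lower. With the macrophage marker level as a covariate edgeR gave changes of -1.02 for Car9 and -3.41 for Car6, each with an adjusted p of 0.0308, and 0.732% of genes were called lower. This covariate differs between the diets. All 14 of its genes were lower on the high-fat diet at an edgeR unadjusted p under 0.05 (6.62% of all genes tested), at a median log2 change of -2.40. Its within-diet r with Car6 changed sign without control mice 3 and 4, so for Car6 this fit and the next are not independent. Without control mice 3 and 4 edgeR gave -0.88 (adjusted p = 0.0362) for Car9 and -3.01 (adjusted p = 0.00249) for Car6, and 1.07% of genes were called lower. Control mice 3 and 4 were the lowest controls for Car6, so leaving them out widens its difference by construction. With library size as a covariate neither passed in edgeR, at -0.86 for Car9 and -2.76 for Car6 (adjusted p = 0.819 for each). That fit called 0 of 14337 genes, and library size itself differed between the diets.

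The order of the family's levels differed between libraries. Per kilobase of exon, the highest means over the 10 libraries were 17.2 ± 1.27 CPM per kilobase for Car13, 13.4 ± 4.84 for Car9 and 13.2 ± 15.1 for Car6 (SD, n = 10). These 3 means lay within the spread of Car6. Car11 followed at 1.93 ± 0.611 CPM per kilobase, and Car7, a cytosolic enzyme outside the chosen set, at 0.418 ± 0.0957. Car2 had 0.252 ± 0.214, Car12 0.0731 ± 0.0681, Car5b 0.0366 and Car4 0.0115 CPM per kilobase. From Car7 downwards, neighbours in this order overlapped in their SDs.

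In all 5 high-fat libraries Car13 had the highest level per kilobase and Car9 came next. In controls the leading gene was Car6 in mice 1 and 2, Car9 in mice 3 and 5, and Car13 in mouse 4. The 3 highest genes of each library held between 86.8% and 96.7% of its summed family level per kilobase. They were Car13, Car9 and Car6, except in high-fat mouse 3, where Car11 was above Car6. The share of Car6 was 33.2 ± 20.02% in control and 11.7 ± 3.70% in high-fat mice, that of Car13 was 30.7 ± 9.55% and 51.2 ± 3.47%, and that of Car9 was 30.9 ± 10.1% and 28.1 ± 3.49% (SD, n = 5 each). The larger share of Car13 on the high-fat diet came with a like level of Car13 and a smaller family sum. Per-length levels in this paragraph assume that reads cover the annotated exons evenly.

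**Figure D2:**
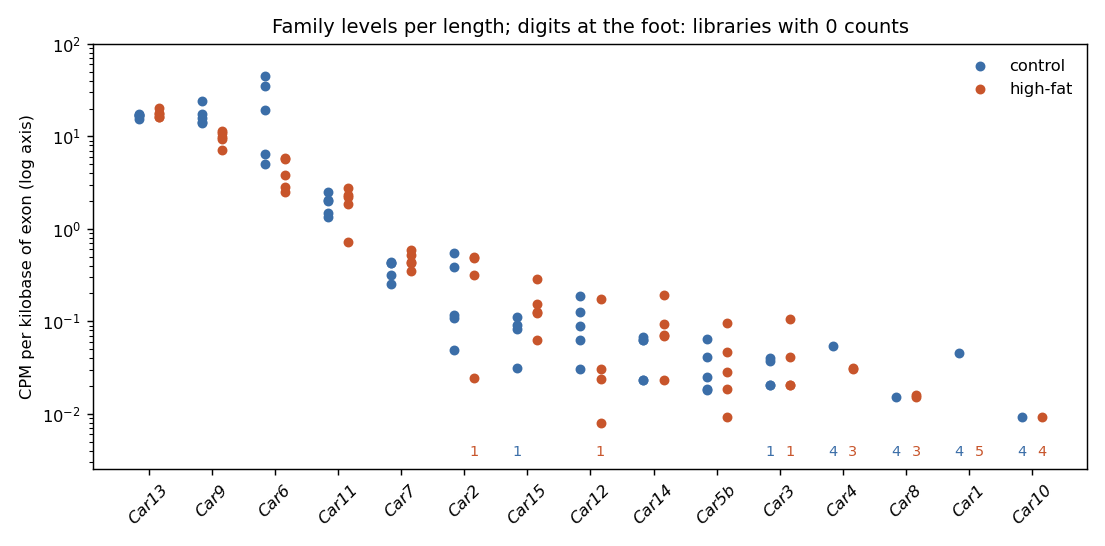
Level of each family gene in CPM per kilobase of exon on a log axis, 1 point per library, blue for control and red for high-fat, with the number of libraries at 0 counts at the foot. Car13, Car9 and Car6 hold the highest points. The points of Car6 are more spread than those of Car13 or Car9. In control mice 1 and 2 they lie above every point of Car13 and Car9, and at their lowest they overlap those of Car11.

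The other 8 family genes were mostly silent. Car7 was the only tested gene among them, with 1.35 ± 0.296 CPM in controls and 1.69 ± 0.331 CPM on the high-fat diet (log2 change 0.33, SE 0.22, edgeR adjusted p = 0.608). Car14, a membrane enzyme, had 30 counts over 10 libraries, Car15 had 35 and Car3 had 15. Car8 had 3 counts, Car10 had 2, Car1 had 1 and Car5a had 0. Car15 shares 73.7% of its 50-base windows with transcripts of other genes, so its count is uncertain. Exons of Car14 overlap 445 bases of Aph1a on the opposite strand, and reads there cannot be told apart. Of the members, Car9 shared 5.02% and Car5b 5.52% of such windows and the other 6 shared 0%.

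Genes that carry the products of these enzymes had diet differences in both directions, and 0 passed the adjusted threshold. Of 20 bicarbonate transporter genes 11 were tested, 8 had a positive and 3 a negative log2 change, and 0 reached an unadjusted p of 0.05. Their median change was 0.06, beside 0.01 over all genes tested. Slc4a2, a chloride/bicarbonate exchanger and the highest per kilobase of the list, was at 95.7 ± 6.21 and 103 ± 8.04 CPM. The sodium/bicarbonate cotransporters Slc4a7 and Slc4a4 stood at 60.8 ± 5.75 and 30.04 ± 6.32 CPM in controls, against 63.1 ± 6.42 and 24.5 ± 5.16 CPM on the high-fat diet. For Slc4a4 the change was -0.29 on the log2 scale (SE 0.17), with an edgeR adjusted p of 0.548.

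Among 18 genes that export protons or lactate, 10 were tested, 4 with a positive and 6 with a negative change, at a median of -0.14. The lactate transporter Slc16a3 (MCT4), itself a HIF target, was at 1078 ± 116 and 882 ± 168 CPM (log2 change -0.29, SE 0.13, edgeR adjusted p = 0.390). Its chaperone Bsg had the highest level per kilobase, at 1089.8 ± 103 and 946 ± 122 CPM (log2 change -0.20, SE 0.10). Slc16a1 (MCT1) was at 141 ± 16.3 and 129.8 ± 32.9 CPM. Slc9a8, a sodium/proton exchanger of the Golgi, went the other way, from 60.6 ± 7.42 to 73.9 ± 6.37 CPM (log2 change 0.28, SE 0.09, edgeR adjusted p = 0.255). Slc16a3 and Slc9a8 were the genes of this list with an unadjusted p under 0.05.

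Proton-sensing genes were sparse. Of 9 such genes 3 were tested, and the acid-sensing channel Asic1 had an unadjusted p under 0.05, at 20.3 ± 2.35 and 26.1 ± 5.99 CPM (log2 change 0.36, SE 0.15, edgeR adjusted p = 0.351).

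The genes listed as regulators of HIF had log2 changes near 0, while most HIF targets had negative ones. The HIF hydroxylase genes Egln1 (-0.40, SE 0.13) and Egln3 (0.27, SE 0.14) were counted with the targets. Of 8 regulator genes 5 were tested, 4 with a positive and 1 with a negative change, and 0 had an unadjusted p under 0.05. Hif1a was at 194 ± 10.5 and 184 ± 9.55 CPM (log2 change -0.08, SE 0.06). Epas1, which encodes HIF-2 alpha, had 0.667 ± 0.624 and 1.302 ± 1.51 CPM and was not tested. HIF-1 alpha is controlled mainly through its protein, which these data do not measure.

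All 29 HIF target genes listed beside Car9 were tested, and 27 had a negative change, at a median of -0.32 beside 0.01 over all genes. Over all genes tested, 7375 had a positive and 6962 a negative change. In the target list 0 passed the adjusted threshold in edgeR. An edgeR unadjusted p under 0.05 was reached by 14, all lower, beside 6.62% lower over all genes tested. This lower level on the high-fat diet had been seen before the list was made, so its counts are a description.

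Ero1l, which encodes an oxidase of protein folding in the endoplasmic reticulum, had the smallest p of the list. It stood at 497.8, 456.6, 320.2, 317.5 and 515.0 CPM in control mice 1 to 5 and at 261.4, 189.1, 172.4, 252.0 and 268.0 CPM in high-fat mice 1 to 5. It was the HIF target whose diets did not overlap, all high-fat libraries lying below all controls, as in 1.1% of genes tested. Among controls, mice 3 and 4 were lowest for Ero1l, as they were for Car6. Its log2 change of -0.88 (SE 0.17, edgeR adjusted p = 0.108) was close in size to that of Car9.

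The named targets after Ero1l had smaller differences, and all of their diets overlapped. They were Higd1a, a mitochondrial protein gene (-0.41, SE 0.12), the secreted glycoprotein gene Stc2 (-0.41, SE 0.13), Pdk1, which holds pyruvate back from the mitochondria (-0.33, SE 0.11), and the HIF hydroxylase Egln1 (-0.40, SE 0.13). Ldha, which makes lactate, was the highest per kilobase, with a log2 change of -0.31 (SE 0.12). Vegfa, the angiogenic factor, had a change of -0.07 (SE 0.10). Higd1a shares 36.6% of its windows with other transcripts and its count is uncertain.

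**Figure D3:**
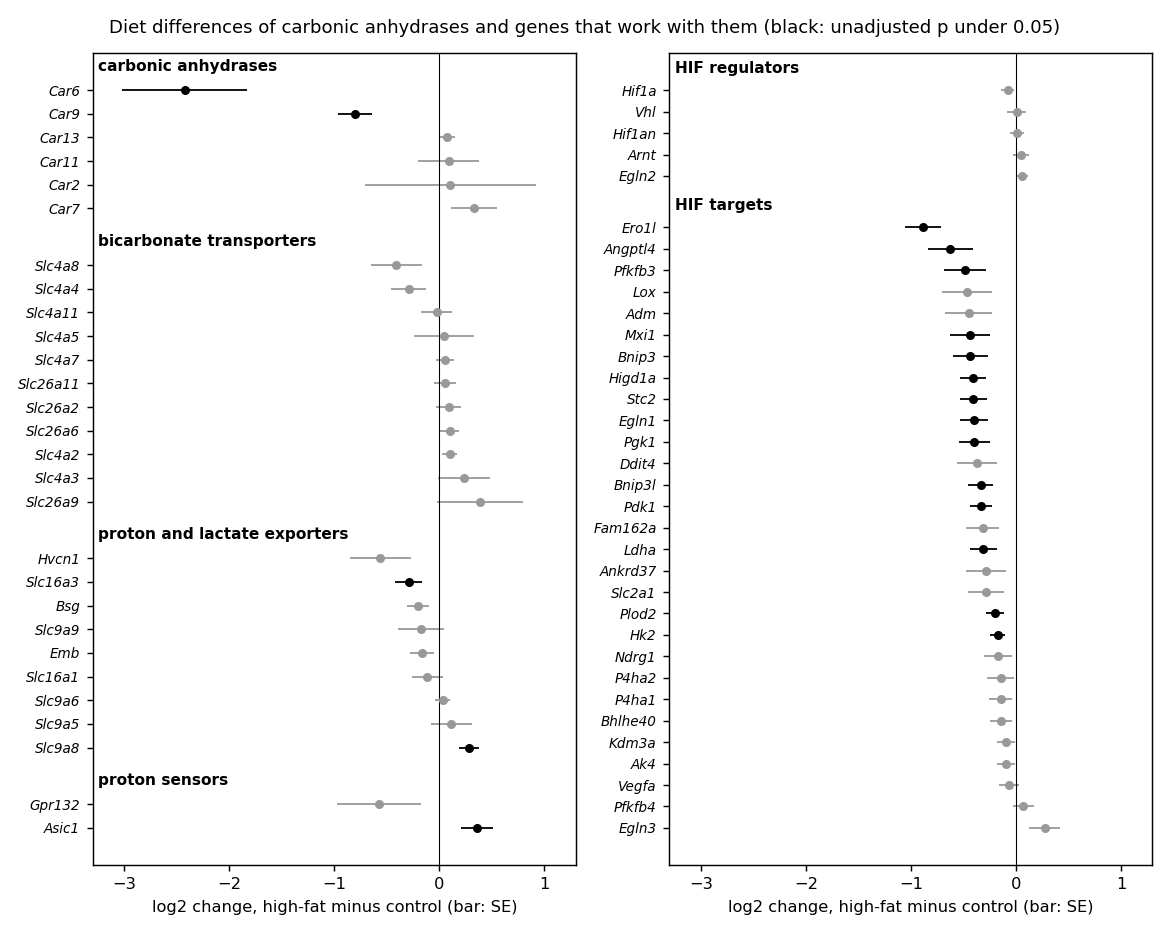
Log2 change from control to high-fat diet (bar: SE, 5 mice each) of each tested carbonic anhydrase and of tested genes of 5 pathway lists, in black where the unadjusted p was under 0.05. Car6 and Car9 lie left of 0 with most HIF targets, a list that includes Egln1 and Egln3. The genes listed as HIF regulators lie close to 0, and the bicarbonate transporters lie on both sides of it.

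Covariation among mice on the same diet does not use the diet contrast. For each tested member, log2 CPM was set against the mean log2 CPM of the 29 HIF targets, of 14 macrophage markers and of 6 endothelial markers after the mean of each diet had been subtracted, which makes 15 relations over 10 libraries. None passed after Benjamini-Hochberg adjustment over the 15, the smallest adjusted p being 0.202 by exact permutation within diets.

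Car9 and the HIF target level had r = 0.69 (exact permutation p = 0.0407, adjusted 0.202) and rho = 0.53 (exact permutation p = 0.146). Without control mouse 5 and high-fat mouse 2, the libraries farthest from the median target level, r was 0.63 (exact permutation p = 0.186). For Car13 r was 0.66 (exact permutation p = 0.0540, adjusted 0.202) and rho was 0.76 (exact permutation p = 0.0222), and r was 0.62 without the same 2 libraries. High-fat mouse 1, with the highest Car13, also had the highest HIF target level of its diet. Car2 had r = -0.69 with the HIF targets (exact permutation p = 0.0513, adjusted 0.202), at few counts.

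Car6 and the HIF target level had r = 0.48 (exact permutation p = 0.189, adjusted 0.348) and rho = 0.32, and r was -0.10 without control mice 3 and 4. Without control mouse 5 and high-fat mouse 2 it was 0.72 (exact permutation p = 0.0365), so its size and sign depend on which libraries are kept. With the macrophage level Car6 had r = -0.66 (exact permutation p = 0.183, adjusted 0.348), which turned to 0.39 without control mice 3 and 4. With the endothelial level it had r = -0.66 (exact permutation p = 0.0301, adjusted 0.202), and -0.28 without control mouse 4 and high-fat mouse 3.

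**Figure D4:**
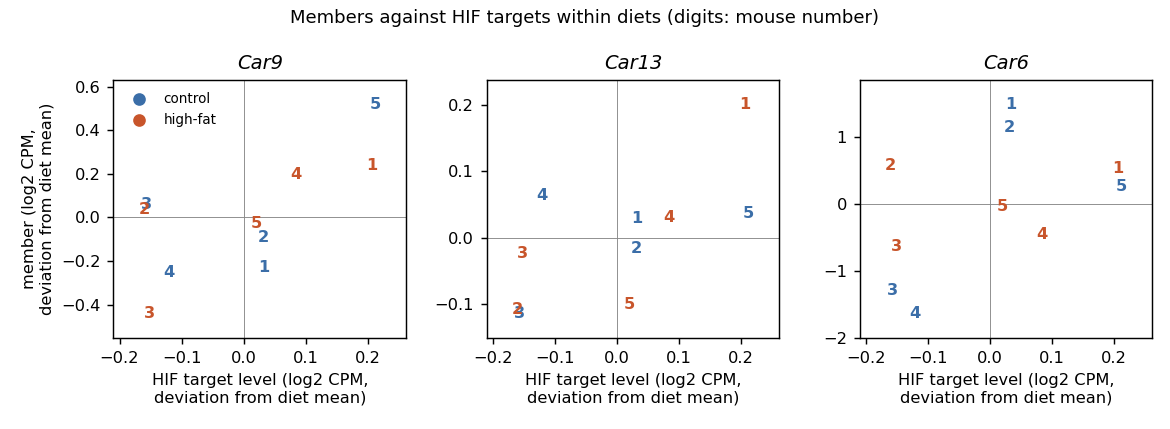
Log2 CPM of Car9, Car13 and Car6 against the mean log2 CPM of 29 HIF targets, each as the deviation from its diet mean, with digits for mouse numbers. High-fat mouse 1 and control mouse 5 lie to the right in each panel, and control mice 3 and 4 lie far below the rest in the panel of Car6.

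Car6 and Car9 did not vary together within diets. Their r was 0.14 over the 10 libraries, that of Car9 with Car13 was 0.23 and that of Car2 with Car6 was -0.59, given as descriptions with no test. Among controls, libraries high in Car6 were high in Trib3 and Ddit3, stress genes of the ATF4 and CHOP program. The genes of this program were looked at after their values had been seen. Trib3, a target of both factors that dampens AKT signaling, stood at 269, 289, 119, 109.9 and 215 CPM in control mice 1 to 5, and at 119.7, 97.2, 79.1, 95.0 and 143 CPM in high-fat mice 1 to 5. Control mice 1, 2 and 5 were the highest 3 libraries for Trib3, as for Car6. On the high-fat diet the orders differed, with mouse 2 highest for Car6 and mouse 5 highest for Trib3.

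Within diets, r with Car6 was 0.90 for Trib3, 0.87 for Ddit3, which encodes CHOP, 0.39 for Atf4 and 0.79 for the mean of 18 genes of this program. The r with that mean was 0.11 for Car9, 0.14 for Car13, -0.54 for Car11 and -0.89 for Car2, the last at few counts. With Atf4 itself r was 0.17 for Car9, 0.06 for Car13, -0.80 for Car11 and -0.90 for Car2. All these values of r use the 10 libraries and were not recomputed without control mice 3 and 4. Ddit3 stood at 49.5, 45.6, 30.03, 34.5 and 40.3 CPM in control mice 1 to 5 and at 36.2, 32.6, 32.7, 32.2 and 38.0 CPM in high-fat mice 1 to 5. Control mice 1, 2 and 5 were again the highest 3, and high-fat mouse 5 was the highest of its diet. All 18 genes had a negative log2 change, at a median of -0.32 beside 0.01 over all genes tested.

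By the highest r within diets among 10837 genes of at least 5 CPM, the genes most like Car6 were Yap1 (0.98), Slc38a7 (0.97), Ldlrad3 (0.96), Ubald2 and Arl4c (0.95 each). Yap1, the transcriptional coactivator of the Hippo pathway, had a diet difference of -0.06 (SE 0.06) on the log2 scale. The genes most like Car9 were Mtch1 and Sh3bgrl3 (0.97 each), Rab1a (0.96), Gatd1 (0.95) and Tspan3 (0.94). Bsg, the MCT chaperone, had r = 0.93 with Car9, beside 0.65 for Ldha, 0.53 for Ero1l and 0.03 for Vegfa. The genes most like Car13 were Plekha2 and Bhlhe41 (0.97 each), Eomes, Ptk7 and Tbx2 (0.96 each). With 10 libraries and 10837 candidates, high values of r are found for any gene, and these are descriptions.

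Library totals ran from 17050797 to 18653705 counts on the control diet and from 16513388 to 17154050 on the high-fat diet, and they differed between diets (exact two-sided permutation p = 0.0317). Markers of colon epithelium were low, with means of 0.0928 CPM for Epcam, 0.278 for Krt8 and 0.196 for Krt18. Of 10 epithelial markers 8 were under 1 CPM, and Cdh1 was highest at 1.56 CPM. The 10 summed to between 2.22 and 7.36 CPM in control and between 2.10 and 4.76 CPM in high-fat libraries. The 9 fibroblast markers summed to between 7034 and 12012 CPM in control and between 6364 and 12562 CPM in high-fat libraries, led by Col3a1. All 6 leukocyte markers were tested in spite of the CD45 sort, at sums of 11.99 to 125 and 9.23 to 38.6 CPM.

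All 14 macrophage markers were present, led by C1qa, and summed to between 63.9 and 432 CPM in control and between 31.7 and 69.0 CPM in high-fat libraries. Control mice 3 and 4, the lowest controls for Car6, were the highest for macrophage markers. The 12 endothelial markers summed to between 26.9 and 45.1 CPM and between 32.3 and 56.2 CPM, and the 8 erythroid markers to between 0.0583 and 16.7 CPM and between 0.651 and 1.61 CPM, in control and high-fat libraries. Control mouse 5, the highest for erythroid markers, had 5 counts of Car2. The 7 adipocyte markers summed to at most 0.183 CPM, the 6 neutrophil markers to at most 2.27 CPM and the 9 skeletal muscle markers to between 2.97 and 11.5 CPM. The part of other cells and of library size in the differences of Car6 and Car9 was not tested beyond the covariate fits above. In sorted bulk RNA, fewer cells of a type and less RNA per cell cannot be told apart. The p-values measure the spread between the mice.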

How the data were processed

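Raw counts per gene were deposited by the authors as whole numbers in 1 table, with 1 column per mouse and 10 mice. Without giving their roles, the submitters' processing notes list the builds GRCm38 and mm10, DESeq2 1.24.0, BWA 0.7.12, FastQC 0.11.5 and cutadapt 1.15. Which program counted reads, with what annotation and strand setting, is not given in the sources used, so reads of antisense partners cannot be told apart. BWA does not splice, so junction reads can be lost if it was the aligner. Libraries were prepared from polyadenylated RNA, per the labels' protocols.

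Of 53379 gene identifiers, 53274 matched GENCODE M21 (GRCm38) without the version. The test of high-fat against control was the two-sided quasi-likelihood test of edgeR 4.0.16 (R 4.3.3), robust, after TMM scaling and the filterByExpr filter, with Benjamini-Hochberg adjustment over 14337 genes at 0.05. These genes held 99.9% of counts. Log2 CPM used a prior count of 2. Alternatives were RLE normalization, no filter, DESeq2 1.42.0, covariates, a replicate block and libraries left out. Levels per kilobase are CPM divided by annotated exon length.

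The members and lists were chosen with earlier results of these data known. Named genes were the 8 members, in each pathway list the tested genes with an unadjusted p under 0.05 (at most 5), the highest per length and a set of fixed names, and the 5 genes most like each member of at least 5 CPM. Trib3, Ddit3, Atf4 and the other ATF4 and CHOP genes were added after their values were seen, as was the fit without control mice 1 and 2. No library pair had a chi-square per degree of freedom under 8.26, so all were kept as separate replicates. Some genes of the pathway lists are not reported here.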

Additional observations from a re-analysis of the deposited data

Results flagged for a closer look

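A single library stood apart from the other 4 of its diet for 2 of the 8 members, by Dixon's test at a critical value of 0.71. Car4 was at 0.106 CPM in control mouse 2, from 2 counts, where the other 4 control libraries had 0. Car12 was at 1.31 CPM in high-fat mouse 1, where the nearest high-fat library had 0.233 CPM. In 16 groups tested (8 members in 2 diets), chance flags about 1 in 20 where values are normally distributed. That rate does not hold for counts near 0. With 4 libraries at 0, any count in the remaining library is flagged, as for Car4. Both genes lie below the expression filter and rest on few counts.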

How the results depend on the processing

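In edgeR 9 genes passed the adjusted threshold, and the number was 53 with no filter on low counts, 16 with a replicate block, 0 with library size as a covariate (817 at an unadjusted p under 0.05), 239 with the macrophage level, 276 without control mice 3 and 4, 1 without control mice 1 and 2 and between 1 and 27 with 1 library left out. DESeq2 called 326. The number of members past it was 0 in edgeR and 2 with DESeq2, 2 with the macrophage level and 2 without control mice 3 and 4, being Car6 and Car9 each time; the 15 other alternatives gave 0. Of the pH and HIF list genes 0 of 59 tested passed in edgeR. The number was 1 of 68 with DESeq2 and 1 of 59 with the replicate block. It was 6 of 59 with the macrophage level and 2 of 60 without control mice 3 and 4. Ero1l was among them each time. For all genes, the counts given first were of 17737 tested with DESeq2 and 14586 without control mice 3 and 4. With the replicate block or the macrophage level they were of 14337. Car9 and Car6 were lower in all 18 alternatives. Their log2 changes with the replicate block were -0.79 (edgeR adjusted p = 0.131) and -2.11 (edgeR adjusted p = 0.0908). Same-numbered mice correlated at 0.23, -0.36, 0.33, -0.07 and 0.15 after diet means were subtracted, so the numbers do not pair the mice; only number 1 correlated best with its own number. Car2 turned to -0.42 without control mice 1 and 2 and ran from -0.24 to 0.66 with 1 library left out. Car11 turned to -0.48 with library size as a covariate and ran from -0.064 to 0.30 with 1 library left out, the lowest without high-fat mouse 3. Car6 with the HIF targets turned to -0.10 without control mice 3 and 4, and Car6 with the macrophage level to 0.39 without those mice, which are also the 2 libraries farthest from the median. The causes were not tested. Car2, Car4, Car5b and Car12 are limited by their counts.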
